A study of Arabidopsis thaliana with 121 samples.

Results

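A group of 472 transposable elements (TEs) was nearly silent in the leaves of wild-type Arabidopsis thaliana and of cdca7 double mutants but transcribed in plants without the chromatin remodeller DDM1. They were chosen from counts of 3′-tag mRNA-seq, which reads 1 tag near the 3′ end of each polyadenylated transcript. Of 31188 TEs with a row in the count table, 978 had 10 or more counts in 3 or more of 39 libraries. The 472 had, among these, at most 3 counts in each of the 3 wild-type libraries, and 4 or more counts in fewer than 2 of the 4 libraries of the double mutants. A TE is called on here in a library where it had 4 or more counts. The choice therefore fixes that these TEs are low in the wild type and in the double mutants. Since 3 libraries with 10 counts were also needed, it fixes that nearly all are high in a ddm1 background. The levels in these groups are given as a description, with no test, and the tests of TEs below concern only differences among ddm1 plants and a set of double-mutant libraries that the choice did not use.

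DDM1 is a SWI/SNF-family chromatin remodeller that gives the DNA methyltransferases MET1, CMT2 and CMT3 access to DNA wrapped around nucleosomes and places the histone variant H2A.W on heterochromatin. Most plant TEs are methylated and transcriptionally silent, and plants that lose DDM1 lose this methylation over successive inbred generations while many TEs become transcribed. CDCA7 proteins carry a zinc finger that binds hemimethylated CG sites and act with DDM1 (HELLS in mammals). Arabidopsis has a pair of such genes, CDCA7α and CDCA7β. TEs that are transcribed on loss of DDM1 but stay low on loss of both CDCA7 genes bear on how much of the silencing by DDM1 needs CDCA7.

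The 39 libraries were made from pooled rosette leaves of 3 plants of 31 days, in Col-0. Of 16 genotypes, 9 carried the ddm1-2 mutation, which had been kept heterozygous through repeated backcrosses before homozygous plants were isolated. ddm1_2_G2 (2 libraries) and ddm1_2_G5 (3) were labelled as the second and the fifth homozygous generation. F2_ddm1 (2) was labelled only as an F2 and is taken here as the first homozygous generation. In its comparisons, generation and origin as an F2 cannot be told apart. F2_ddm1_cdca7a_2 (2) and ddm1_cdca7a_1 (2) came from crosses and were compared with F2_ddm1 and ddm1_2_G2. ddm1_cdca7b_1 (3), ddm1_cdca7b_2 (3), ddm1_cdca7ab_1 (3) and ddm1_cdca7ab_2 (2) were made by CRISPR in the second generation of ddm1-2, sampled in the sixth homozygous generation and compared with ddm1_2_G5. DDM1 was intact in the double mutants cdca7ab_1 (2) and cdca7ab_2 (2), in the single mutants cdca7a_1 (3), cdca7a_2 (2), cdca7b_1 (3) and cdca7b_2 (2), and in Col_0 (3). The cdca7a_1 T-DNA lies in the promoter of CDCA7α and raises its transcript, whereas that of cdca7a_2 disrupts the coding sequence. cdca7ab_1 joins the T-DNA of cdca7a_2 to a CRISPR deletion in CDCA7β, and both genes were edited in cdca7ab_2. Each genotype is 1 line, so that the effect of a mutation and the history of a line cannot be told apart. A second set of 82 libraries, from single leaves of plants of 28 days, included another double mutant, cdca7_ab (4 plants), and its WT (5 plants).

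Library totals in the first set were 2087927 to 4439892 counts, and plastid transcripts took 5.55% to 43.9% of them. Of the libraries of F2_ddm1, 1 was the shallowest (2087927 counts). The other held 38.8% plastid counts, against a median of 12.5% in the first set. One of the libraries of cdca7b_2 stood apart in these TEs, as described below. The summed level of 5 leaf markers was 33700 to 57600 CPM (counts relative to the library total after TMM scaling) in ddm1, 10300 to 27900 CPM in the double mutants and 8110 to 23600 CPM in Col_0. Over all ddm1 backgrounds it was 17700 to 57600 CPM. Of these, GLDP1 alone had a lower median in ddm1 backgrounds (511 CPM) than in double mutants (732 CPM) and Col_0 (696 CPM). The sums of 4 pollen markers were 2.86 to 18.5 CPM in ddm1, 1.44 to 21.2 CPM in the double mutants and 4.31 to 10.3 CPM in Col_0. The 4 seed markers summed to at most 0.317 CPM in ddm1, 0.211 CPM in the double mutants and 0 CPM in Col_0. Flower markers summed to at most 3.17 CPM in ddm1, 1.05 CPM in the double mutants and 1.15 CPM in Col_0. Root markers summed to at most 0.37, 0.577 and 2.01 CPM in these groups. In pooled leaves, fewer cells transcribing a TE and less RNA per cell cannot be told apart.

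The TEs were on in large numbers in every ddm1 library and in few of them elsewhere. In F2_ddm1, 381 and 329 of the 472 were on, in ddm1_2_G2 429 and 403, and in ddm1_2_G5 435, 431 and 430. In the 15 libraries of the ddm1 cdca7 lines 367 to 446 were on. The double mutants had 14 and 35 TEs on in cdca7ab_1 and 3 and 29 in cdca7ab_2, and Col_0 had none in its 3 libraries. Among the single mutants, 9 libraries had 0 to 10 on, and the remaining library, 1 of the pair of cdca7b_2, had 47. The summed level was 2761 to 4668 CPM in the 7 ddm1 libraries (median 3835), 99.5 to 121.6 CPM in the 4 double-mutant libraries and 15.6 to 46.7 CPM in Col_0. Every double-mutant library was thus above every Col_0 library in summed level, a difference that was not tested. The choice of TEs favours this direction. It held each Col_0 library to at most 3 counts of a TE but let 1 of the 4 double-mutant libraries exceed this. The 472 TEs took 9.42% to 11.1% of all TE counts in ddm1, 1.31% to 1.48% in the double mutants and 0.584% to 1.66% in Col_0.

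**Figure D1:**
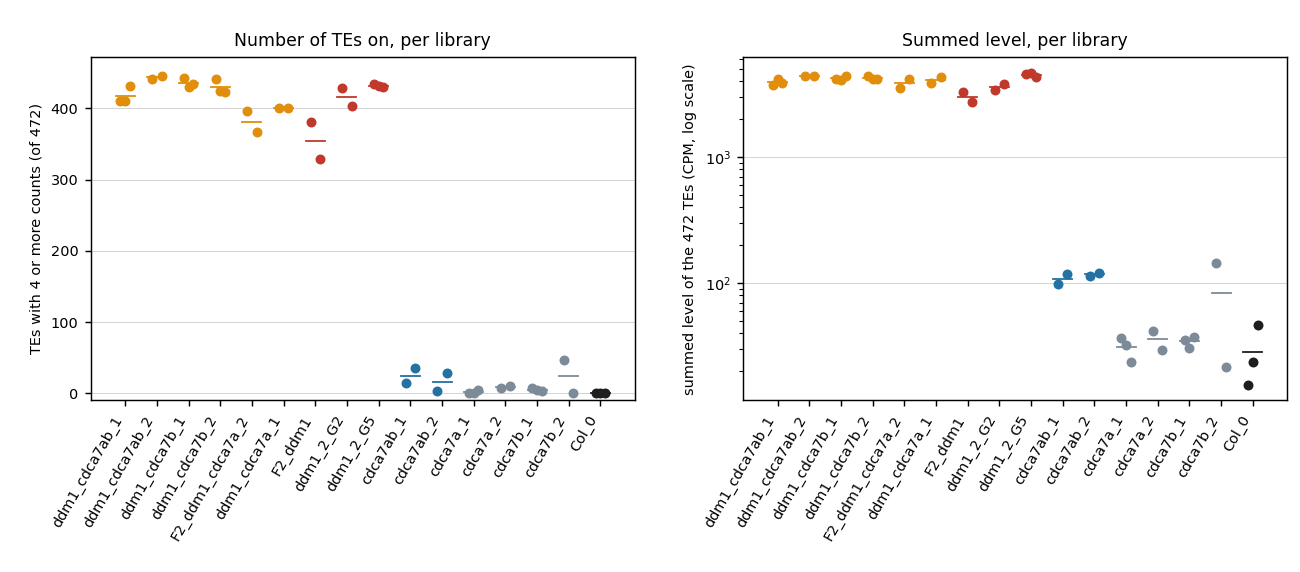
Each point is 1 library of the first set, and bars are means of a genotype. The left panel counts the TEs of the 472 with 4 or more counts and the right panel gives their summed level (CPM, log scale). ddm1 cdca7 lines (orange) and ddm1 (red) lie between 329 and 446 TEs on, double mutants (blue) between 3 and 35, single mutants (grey) between 0 and 47, and Col_0 (black) at 0.

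Single TEs were weakly transcribed. The mean level over the 7 ddm1 libraries had a median of 4.48 CPM (range 0.499 to 66.9 CPM), and 114 of the 472 averaged 10 CPM or more. The 10 highest held 13.0% of the summed level and the 118 highest 64.0%, so the signal was spread over many elements. In Col_0, 292 of the TEs had no count in any library. Against the floor of 3 counts per Col_0 library, which equals 0.797 CPM, the level of these 292 in ddm1 was at least 4.73-fold higher at the median and at least 42.3-fold higher for the highest, and the lower bound was 2 or more for 260.

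The highest 2 TEs both lie on chromosome 3. AT3TE57100 had 148 and 69 counts in F2_ddm1, 59 and 37 in ddm1_2_G2, and 111, 653 and 363 in ddm1_2_G5. In the double mutants it had 1 and 3 counts in cdca7ab_1 and 2 and 6 in cdca7ab_2, against 0, 0 and 2 in Col_0. Its libraries within a genotype differed several-fold, since ddm1_2_G5 averaged 118 ± 78.5 CPM (SD, n = 3). AT3TE54710 was more even, with 135 and 90 counts in F2_ddm1, 247 and 270 in ddm1_2_G2 and 186, 312 and 126 in ddm1_2_G5. It had 2 and 1 counts in cdca7ab_1, 1 and 7 in cdca7ab_2, and 0, 0 and 3 in Col_0. The other 8 of the 10 highest were AT5TE40425, AT5TE42660, AT2TE00015, AT3TE62025, AT1TE51065, AT1TE52610, AT1TE47750 and AT3TE59620, with means of 41.5 to 51.0 CPM over the 7 ddm1 libraries. All 10 were on in each of the 22 libraries of a ddm1 background.

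A stricter class of 35 TEs had no count in any of the 17 libraries with intact DDM1. AT4TE25590 is an example, with 35 and 16 counts in F2_ddm1, 37 and 35 in ddm1_2_G2, 22, 33 and 27 in ddm1_2_G5 and 0 in all of those 17. At the other edge, 15 TEs reached 10 or more counts in a library with intact DDM1. AT5TE42855 had 2 and 21 counts in cdca7ab_1 and 0 and 2 in cdca7ab_2, and AT1TE53660 had 0 and 0 in cdca7ab_1 and 0 and 23 in cdca7ab_2, so each was on in a single library and stayed within the limit. AT3TE06550 went against the name of the group, as it passed the count filter only through libraries with intact DDM1. It had 3 and 11 counts in cdca7ab_1, 10, 9 and 4 in cdca7b_1 and 12 and 4 in cdca7b_2. In ddm1 it had 2 and 2 counts in F2_ddm1, 3 and 3 in ddm1_2_G2 and 5, 1 and 3 in ddm1_2_G5. Just outside the limit were AT4TE08450, with 4 and 4 counts in cdca7ab_1 and 1 and 0 in cdca7ab_2, and AT2TE00095, with 1 and 5 and 0 and 4. AT5TE63610 missed only the limit on the wild type, with 0, 0 and 4 counts in Col_0. In all, 81 of the 472 were on in exactly 1 of the 4 double-mutant libraries and 106 had no count in any of the 4, so the limit separates a continuous range of low counts.

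**Figure D2:**
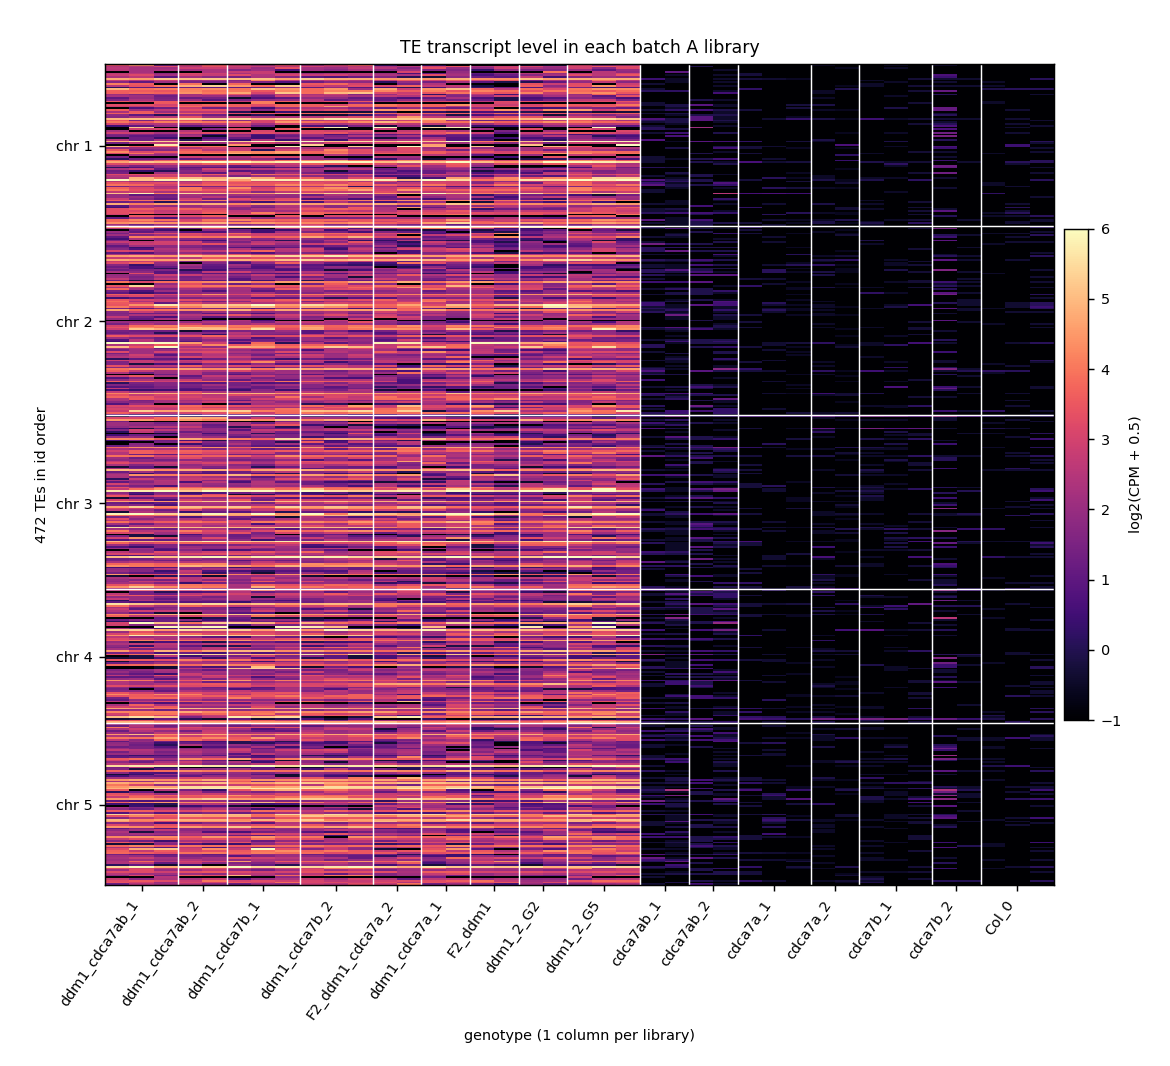
Rows are the 472 TEs in the order of their identifiers along chromosomes 1 to 5, columns are the 39 libraries of the first set grouped by genotype, and colour is log2(CPM + 0.5). The 22 columns of ddm1 backgrounds are bright and the 17 with intact DDM1 are dark, apart from 1 column of cdca7b_2, in which 47 TEs were on.

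Not every TE was on in every ddm1 plant. Of the 472, 282 were on in all 7 ddm1 libraries, 114 in 5 or 6, 75 in 1 to 4, and 1 in none. Over the 22 libraries of a ddm1 background, 234 were on in all. The number off in every library of a genotype was 65 in F2_ddm1, 23 in ddm1_2_G2 and 4 in ddm1_2_G5. It was 42 in F2_ddm1_cdca7a_2, 32 in ddm1_cdca7a_1, 5 in ddm1_cdca7b_1, 12 in ddm1_cdca7b_2, 8 in ddm1_cdca7ab_1 and 12 in ddm1_cdca7ab_2. The lines of the first and the second generation thus had more TEs off than the later ones, with depth differing between them as given above. These early lines also had 2 libraries each, against 3 in the later ones except ddm1_cdca7ab_2 (2). Being off in every library is easier to meet with fewer libraries. The exception that was on in no ddm1 library was AT1TE46310, chosen for mention after its values were seen. It had 14, 29 and 13 counts in ddm1_cdca7ab_1 and 21 and 23 in ddm1_cdca7ab_2, against 2, 1 and 1 in ddm1_2_G5. It had at most 3 counts in every other library. It passed the count filter only through these 5 libraries of ddm1_cdca7ab_1 and ddm1_cdca7ab_2, so that the difference is a description.

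The median level of the TEs was higher in the later generations, although few single TEs passed a test. The question is whether these TEs are already at their full level when homozygous ddm1 first appears. The mean over the 472 of log2 CPM was 2.04 ± 0.216 in F2_ddm1 (SD, n = 2), 2.27 ± 0.0233 in ddm1_2_G2 (n = 2) and 2.61 ± 0.0714 in ddm1_2_G5 (n = 3). Means increased in the order of the generations for 176 TEs and decreased in that order for 26. For ddm1_2_G5 against F2_ddm1 the median log2 fold change was 0.56, and 77.5% of the 472 lay above 0. The median was 0.36 for the 194 TEs that were silent in Col_0 but on in the double mutants, 0.26 for the 312 TEs above the wild-type limit, and 0.02 for all 17943 features. Every ddm1_2_G5 library was above every F2_ddm1 library for 153 of the TEs (32.4%, against 16.0% of all features) and below for 22 (4.66%, against 12.6%). The step from F2_ddm1 to ddm1_2_G2 had a median of 0.16, with 111 TEs (23.5%) higher in every ddm1_2_G2 library and 71 (15.0%) lower, against 23.1% and 21.3% of all features. The step from ddm1_2_G2 to ddm1_2_G5 had a median of 0.33, with 119 TEs (25.2%) higher in every ddm1_2_G5 library and 15 (3.18%) lower, against 12.2% and 11.8% of all features. These 3 comparisons share libraries, and in those with F2_ddm1 the generation cannot be told apart from the origin as an F2. The shallow F2_ddm1 library had a mean log2 CPM of 1.89 and the deeper one 2.20, both below the values of 2.25 and 2.28 in ddm1_2_G2 and 2.55 to 2.69 in ddm1_2_G5, and the part of depth and of the plastid share in the difference was not tested. The count filter used these libraries too, and 459 of the 472 pass it without them.

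A TE passed the test here at an edgeR adjusted p no larger than 0.1 and a log2 fold change of 1 or more in size. Only 3 single TEs passed between ddm1_2_G5 and F2_ddm1, all of them higher in ddm1_2_G5. They were the only features of the 17943 to pass (0.0167% of all features). AT2TE21505 had 31, 16 and 22 counts in ddm1_2_G5 against 0 and 0 in F2_ddm1, so the groups did not overlap. Its level was at least 5.92-fold higher in ddm1_2_G5 against the floor of 3 counts per library (adjusted p = 0.0275, edgeR quasi-likelihood test). AT1TE42210 had 30, 72 and 24 counts in ddm1_2_G5 against 1 and 0 in F2_ddm1, a ratio of 65 with a 95% counting interval of 11.5 to 2590 (edgeR adjusted p = 0.0323). Both TEs were on in every library of the other 8 ddm1 genotypes, including F2_ddm1_cdca7a_2 of the same generation. AT4TE18505 had 67, 62 and 124 counts in ddm1_2_G5 against 11 and 2 in F2_ddm1, a log2 fold change of 3.39 (SE 0.60, edgeR adjusted p = 0.0590). It was still low in ddm1_2_G2, with 14 and 7 counts. With only the libraries of ddm1_2_G5 and F2_ddm1 in the fit none of the 3 passed (adjusted p = 0.117 for AT2TE21505 and AT1TE42210 and 0.141 for AT4TE18505 in the same edgeR test), and DESeq2 gave no adjusted p for AT2TE21505. All 3 calls were also lost without either of the F2_ddm1 libraries, with adjusted p of 0.204 for each TE without replicate 2 and of 0.422, 0.551 and 1.0 without replicate 3 in the same edgeR test, and AT4TE18505 also lost its call without replicate 3 of ddm1_2_G5 (adjusted p = 0.167). No TE of the 472 passed the edgeR test for ddm1_2_G2 against F2_ddm1 or for ddm1_2_G5 against ddm1_2_G2, where 0% of all features passed. With p below 0.05 before adjustment, ddm1_2_G2 against F2_ddm1 had 37 of the 472 TEs higher and 16 lower, against 7.17% and 5.57% of all features, and DESeq2 called 7, against 1.62% of all features. In ddm1_2_G5 against ddm1_2_G2, 43 were higher and 5 lower, against 4.07% and 3.51% of all features, and DESeq2 called 6, against 0.15%.

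**Figure D3:**
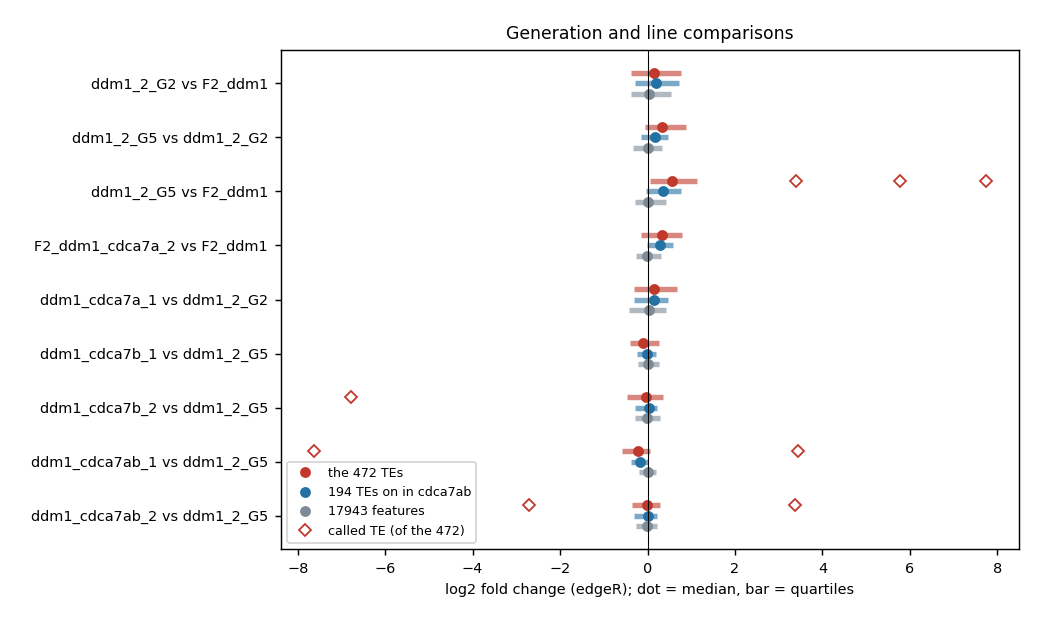
For each comparison, dots are medians and bars quartiles of the edgeR log2 fold change, over the 472 TEs (red), the 194 TEs on in the double mutants (blue) and all 17943 features (grey), and diamonds are single TEs of the 472 that passed the test. The median of the 472 is largest for ddm1_2_G5 against F2_ddm1 (0.56) and lowest for ddm1_cdca7ab_1 against ddm1_2_G5 (-0.22).

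Few of these TEs passed a test between ddm1 and ddm1 with mutations in CDCA7 genes. With few libraries per genotype, a TE that did not pass may still have differed. These comparisons ask whether CDCA7 still matters for these TEs once DDM1 is gone. ddm1_cdca7a_1 carries the promoter T-DNA described above and therefore does not ask about loss of CDCA7α. Against F2_ddm1, F2_ddm1_cdca7a_2 had a median log2 fold change of 0.33, with 115 TEs (24.4%) higher in every library against 15.8% of all features. Against ddm1_2_G2, ddm1_cdca7a_1 had a median of 0.16, with 113 (23.9%) higher in every library against 19.6% of all features. No TE passed the edgeR test in either, with 0% and 0.00557% of all features passing. With p below 0.05 before adjustment, 19 of the 472 TEs were higher and 1 lower in F2_ddm1_cdca7a_2, against 2.55% and 1.24% of all features, and DESeq2 called 0, against 0.1%. In ddm1_cdca7a_1, 26 were higher and 12 lower, against 5.85% and 6.01% of all features, and DESeq2 called 1, against 1.15%.

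The 4 lines compared with ddm1_2_G5, which share those 3 libraries as control, had medians at or slightly below 0. They were -0.11 in ddm1_cdca7b_1, -0.05 in ddm1_cdca7b_2, -0.22 in ddm1_cdca7ab_1 and -0.01 in ddm1_cdca7ab_2. The lines with only CDCA7β mutated had 30 TEs (6.36%) below every ddm1_2_G5 library and 12 (2.54%) above in ddm1_cdca7b_1, against 4.65% and 4.0% of all features, and 47 (9.96%) below and 29 (6.14%) above in ddm1_cdca7b_2, against 7.56% and 6.97%. ddm1_cdca7ab_1 had 46 TEs (9.75%) below every ddm1_2_G5 library and 12 (2.54%) above, against 3.26% and 2.45% of all features, and the 194 TEs on in the double mutants had a median of -0.17 there. In ddm1_cdca7ab_2, 49 (10.4%) were below and 40 (8.48%) above, against 9.8% and 8.96% of all features. The excess of lower TEs in ddm1_cdca7ab_1 was therefore not seen in ddm1_cdca7ab_2, and the difference between these lines was not tested. In ddm1_cdca7b_1 no TE passed the edgeR test (0.00557% of all features did), while 5 were higher and 16 lower with p below 0.05 before adjustment (1.61% and 2.35% of all features), and DESeq2 called 0 (0.0223% of all features).

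The TEs that passed in the other 3 lines behaved differently from line to line. AT4TE50435 was nearly uncounted in ddm1_cdca7b_2, with 1, 0 and 1 counts against 76, 103 and 63 in ddm1_2_G5. The log2 fold change was -6.78 (SE 0.60, edgeR adjusted p = 7.43e-07), and the ratio of ddm1_2_G5 over the line was 130 (95% counting interval 35.7 to 1080). This was the only TE of the 472 called in this line, where 0.0111% of all features were. In ddm1_cdca7ab_2 the same TE was lower too, with 9 and 22 counts (log2 fold change -2.71, SE 0.46, edgeR adjusted p = 0.0377), and in both of the remaining lines it was above every ddm1_2_G5 library, at 51.6, 37.3 and 44.6 CPM in ddm1_cdca7b_1 and 33.3, 47 and 36.1 CPM in ddm1_cdca7ab_1 against 24.3, 30.3 and 22.1 CPM in ddm1_2_G5. Those higher values did not pass the test. Of these lines, ddm1_cdca7b_2 (CDCA7α intact) had the lowest level of this TE, and ddm1_cdca7ab_1 (both genes mutated) had a high level. Each genotype is 1 line, so the part of the mutations and of the history of a line cannot be told apart.

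AT4TE18505 was nearly uncounted in ddm1_cdca7ab_1, with 0, 0 and 1 counts against 67, 62 and 124 in ddm1_2_G5 (log2 fold change -7.62, SE 0.76, edgeR adjusted p = 1.16e-05). The ratio of ddm1_2_G5 over the line was 254 (95% counting interval 45.1 to 10100). In ddm1_cdca7b_1 it had 125, 139 and 131 counts, whereas ddm1_cdca7b_2 had 21, 19 and 15 and ddm1_cdca7ab_2 had 21 and 21. Its log2 fold change against ddm1_2_G5 was -2.34 in ddm1_cdca7b_2 and -2.37 in ddm1_cdca7ab_2, and neither passed (edgeR adjusted p = 0.206 and 0.624). In the same line ddm1_cdca7ab_1, AT2TE20205 was higher, with 325, 281 and 501 counts against 34, 41 and 26 in ddm1_2_G5 (log2 fold change 3.44, SE 0.61, edgeR adjusted p = 0.0370). Both calls together were 2 of the 3 features called in this line (0.0167% of all features). AT2TE20205 ran against the general order of generations, at 59.9 and 60.0 CPM in F2_ddm1, 26.2 and 30.5 CPM in ddm1_2_G2 and 9.1 to 12 CPM in ddm1_2_G5, a difference between the last and the first that did not pass (log2 fold change -2.48, edgeR adjusted p = 0.258). Its call in ddm1_cdca7ab_1 was lost without any 1 of the ddm1_2_G5 libraries or without replicate 3 of the line, with edgeR adjusted p of 0.495, 0.388 and 0.696 without ddm1_2_G5 replicate 1, 2 and 3 and 0.125 without that of the line.

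AT3TE16035 was higher in ddm1_cdca7ab_2, with 111 and 104 counts against 10, 5 and 9 in ddm1_2_G5 (log2 fold change 3.38, SE 0.46, edgeR adjusted p = 0.0113, 0.0111% of all features called). ddm1_cdca7ab_1 had 26, 22 and 50 counts of it, also above every ddm1_2_G5 library in CPM (8.17, 8.48 and 13.8 against 3.2, 1.47 and 3.15), a difference that did not pass (edgeR adjusted p = 0.602). In F2_ddm1 it had 1 and 1 counts. The 2 calls in ddm1_cdca7ab_2 were lost without ddm1_2_G5 replicate 2 or without either library of the line, with edgeR adjusted p of 0.104 to 0.265 for AT3TE16035 and 0.196 to 1.0 for AT4TE50435. Both were also lost with only the libraries of ddm1_cdca7ab_2 and ddm1_2_G5 in the fit (edgeR adjusted p = 0.202 for AT3TE16035 and 0.459 for AT4TE50435). With the replicate number as a block, AT4TE50435 also lost its call in this line (adjusted p = 0.109) while its call in ddm1_cdca7b_2 stayed.

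**Figure D4:**
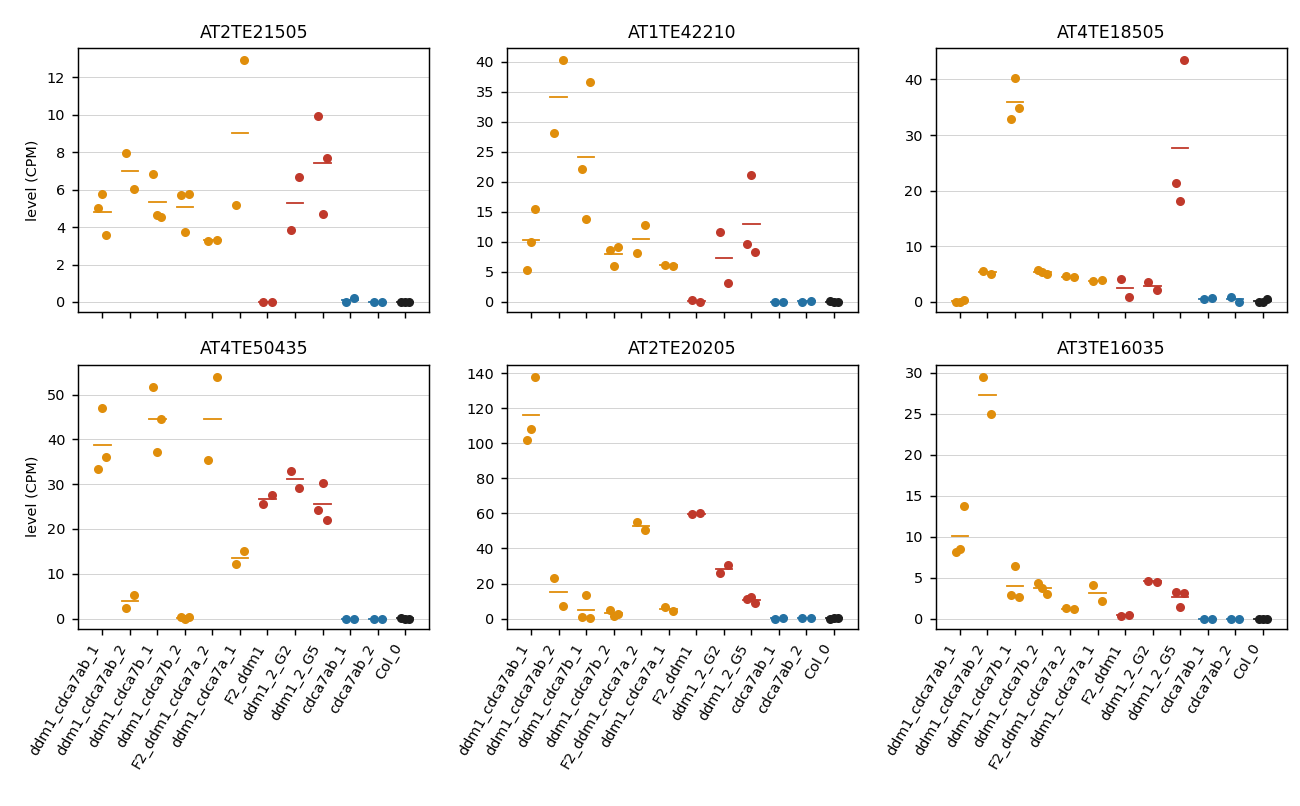
Level (CPM, linear scale) of the 6 TEs that passed a test among ddm1 plants, with 1 point per library and a bar at the mean of each genotype, for ddm1 cdca7 lines (orange), ddm1 (red), double mutants (blue) and Col_0 (black). AT4TE50435 lies at 0 to 0.339 CPM in ddm1_cdca7b_2 and AT4TE18505 at 0 to 0.275 CPM in ddm1_cdca7ab_1, while both are at 18.2 CPM or more in every ddm1_2_G5 library.

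TEs differed widely in how constant they were among the 9 ddm1 genotypes. The range of genotype means had a median of 1.38 on the log2 scale. It was 1 or less for 126 TEs and over 3 for 31. The most constant was AT1TE47035, with 10 to 28 counts in each of the 22 libraries, a range of 0.34 on the log2 scale. AT3TE62785, chosen for mention after its values were seen, was off only in ddm1_cdca7a_1 (2 and 2 counts) and on in every library of the other 8 genotypes, where it averaged 17.6 CPM in ddm1_cdca7ab_2. Together with AT1TE42210, AT2TE21505 and AT4TE50435, it was 1 of 4 TEs that were off in exactly 1 ddm1 genotype and on in every library of all others. The genotype with the lowest mean was F2_ddm1 for 150 TEs and ddm1_2_G2 for 87, against 10 for ddm1_2_G5.

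Some of the largest differences were between libraries of 1 genotype. The counting program can divide reads among similar TE copies, and its part in these differences was not tested. Of the 472, 305 had at least 1 deposited count that was not whole and 167 had only whole counts. A class of 15 TEs had 0 counts in a library and 30 or more in another of the same ddm1 genotype, and 3 of them (AT1TE47195, AT1TE71950 and AT1TE72060) had whole counts in every library. AT1TE48730 had 132 and 0 counts in ddm1_2_G2 and 0, 0 and 177 in ddm1_2_G5. Within some pairs of TEs, nearly all counts of a library lay in 1 of the rows. AT1TE71950 was counted in 12 of the 22 ddm1-background libraries and AT1TE72060 in the other 10, with a sum of 13 to 48 counts in every library. AT1TE47145 was counted in 6 libraries and AT1TE47365, which was also on in the double mutants, in 15, with counts in both rows in the remaining 1 and a sum of 96 to 235 counts. None of the TEs that passed a test among ddm1 plants was in this class of 15, and the median change of ddm1_2_G5 against F2_ddm1 was 0.547 without the 15.

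The TEs lay on all 5 chromosomes, mostly in gene-poor surroundings. There were 93 on chromosome 1, 109 on 2, 100 on 3, 77 on 4 and 93 on 5, which is 1.3% to 1.83% of the TE rows of a chromosome and 42.8% to 54.5% of its TEs past the count filter. Genes and TEs are listed together along each chromosome, so that the share of gene rows among the 101 rows around a TE measures how gene-rich its surroundings are. The median share was 13.9% for the 472 TEs, 11.9% for the 194 TEs on in the double mutants, 33.7% for the 312 TEs above the wild-type limit and 34.7% for all TE rows. Surroundings under 25% held 355 of the 472 (75.2%), against 68.0% of the 978 TEs past the count filter, 87.1% of the 194 TEs on in the double mutants and 41.5% of all TE rows. A share of 50% or more was found for 53 (11.2%), against 18.9% of the 978 TEs, 6.19% of the 194 and 33.6% of all TE rows. As a percentile of the TE rows of a chromosome in id order, the median TE was at 44.1% on chromosome 1, 35.7% on 2, 52.6% on 3, 34.0% on 4 and 39.8% on 5.

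**Figure D5:**
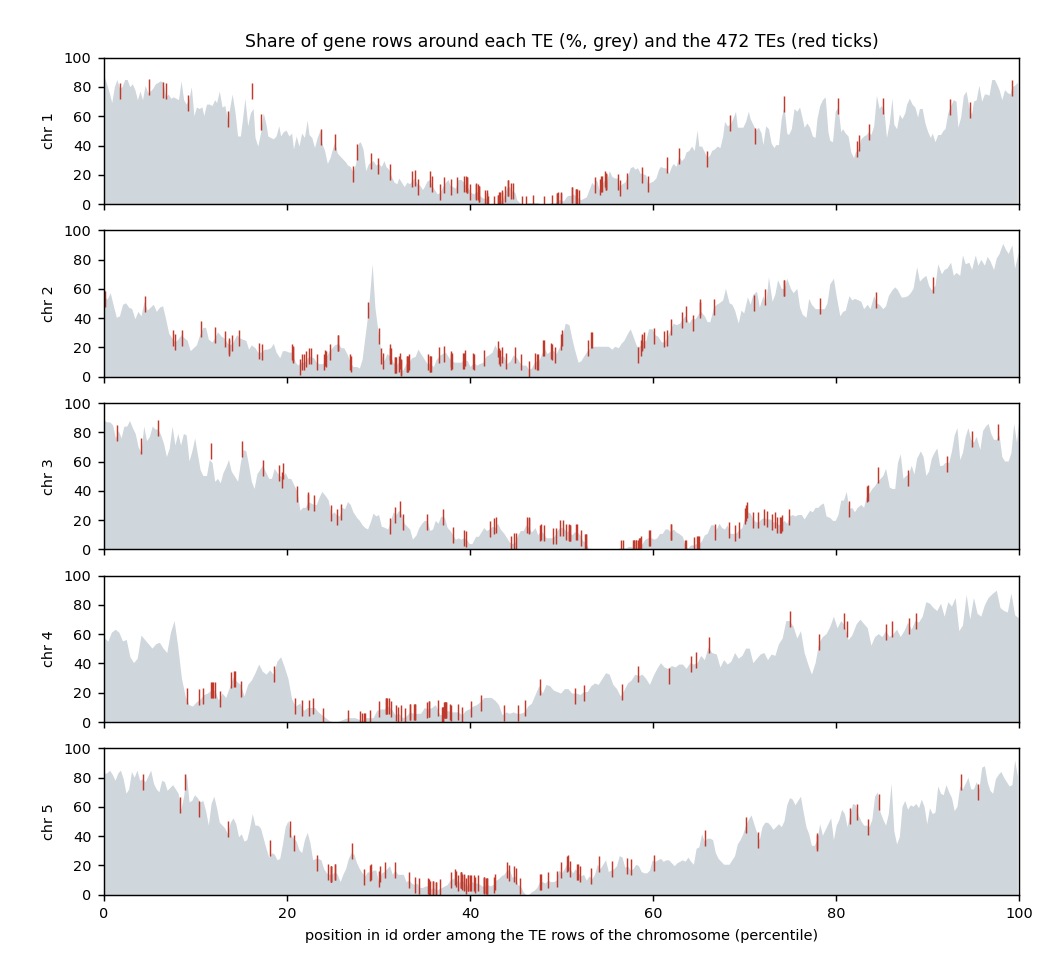
Each panel is a chromosome, with the position in id order among its TE rows on the x axis (percentile) and the percentage of gene rows among the surrounding 101 rows as the grey area. Each red tick is 1 of the 472 TEs at its own share, and ticks crowd where the grey area is low (355 of 472 under 25%), with 53 at 50% or more.

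The TEs are given next by these surroundings. The median level over the 7 ddm1 libraries was 4.65 CPM under 25% gene rows, 4.16 CPM from 25% to under 50% and 5.00 CPM at 50% or more, and 59.4%, 60.9% and 60.4% were on in all 7 libraries. The median log2 fold change of ddm1_2_G5 against F2_ddm1 was 0.56, 0.42 and 0.74 in these 3 classes, whose differences were not tested. It was above 0 on every chromosome, at 0.75 on chromosome 1, 0.34 on 2, 0.67 on 3, 0.51 on 4 and 0.52 on 5. In id order, 213 TEs had another of the 472 within 10 TE rows, and 25 pairs were next to each other.

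The summed antisense signal of the same TEs was higher in every ddm1 library than in every double-mutant or Col_0 library, a difference that was not tested. The sum over the 472 of the deposited antisense RPM, library-scaled read counts computed apart from the sense reads, was 15740 to 31450 in ddm1, 5906 to 37300 in the ddm1 cdca7 lines, 1241 to 5231 in the double mutants and 525 to 1015 in Col_0. The value of 5906 was from replicate 3 of F2_ddm1_cdca7a_2. Antisense RPM and sense CPM were scaled separately, so their sizes are not compared here. Every ddm1 library was above every Col_0 library for 77 of the 472 TEs (16.3%), against 15.2% of the 978 TEs past the count filter and 1.12% of the 17116 features tested that have an antisense row. The sum was carried by few elements, as the 10 highest held 72.2% of it in ddm1. This measure was not used to choose the TEs, but it comes from the same libraries.

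The libraries of cdca7_ab, which the choice did not use, give a measure of whether these TEs stay low in other double-mutant plants. The study describes a double mutant for its complementation lines that carries, like cdca7ab_1, the T-DNA of cdca7a_2 and a CRISPR deletion in CDCA7β made with the same guides. The labels do not say which line cdca7_ab is, and it is not treated here as independent of cdca7ab_1. Of the 472, 25 (5.3%) were on in 2 or more of its 4 plants, against 130 of the 194 TEs on in the first set's double mutants (67.0%). Per plant, 11 to 34 of the 472 were on in cdca7_ab and 1 or 2 in WT, with summed counts of 230 to 463 in cdca7_ab and 18 to 47 in WT. No count was found in any cdca7_ab plant for 196. Only 10 of the 472 passed the count filter in the second set, and 4 of these passed the edgeR test as higher in cdca7_ab than in WT (1.32% of all 17510 features were higher). The filter kept TEs with counts in some line, so the 4 of 10 give no share for the 472.

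All 4 had no count in any of the 5 WT plants. AT5TE36720 had 9, 5, 6 and 18 counts in cdca7_ab and was at least 2.92-fold higher against the floor of 3 counts per WT library (edgeR adjusted p = 0.0113). AT1TE52860 had 1, 5, 1 and 35 counts, at least 2.42-fold higher (edgeR adjusted p = 0.0311), and lost its call without the plant with 35 counts, replicate 5 (adjusted p = 0.592). AT2TE22520 had 2, 4, 12 and 16 counts, at least 2.32-fold higher (edgeR adjusted p = 0.0392). AT4TE10210 had 17, 20, 0 and 6 counts, at least 3.83-fold higher (edgeR adjusted p = 0.0706). AT2TE22520 lost its call without replicate 4 or 5 of cdca7_ab or replicate 2, 3 or 5 of WT (edgeR adjusted p up to 0.115), and AT4TE10210 without replicate 2 or 3 of cdca7_ab or any 1 of the 5 WT plants (adjusted p up to 0.243). DESeq2 called none of the 4. The TE with the most counts, AT1TE48730, had 46, 25, 44 and 60 in cdca7_ab and 0 in all WT plants of the second set, 0 in all 4 double-mutant libraries of the first set, and the all-or-none counts in ddm1 given above.

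Of 22 genes for DNA methylation and heterochromatin, 18 were tested, and 2 of them were higher in ddm1_2_G5 than in Col_0, against 7.69% of all features. VIM1, a cofactor that guides MET1 to hemimethylated DNA, was 1 of them (log2 fold change 3.83, SE 0.79, edgeR adjusted p = 0.001). The other was HTA6, which encodes an H2A.W (2.75, SE 0.46, edgeR adjusted p = 6.72e-05). None was lower there, and none passed in cdca7ab_1 or cdca7ab_2 against Col_0, where 1.36% and 1.4% of all features were higher.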

How the data were processed

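Per the labels and the study's methods, the authors collapsed reads by molecular identifier, mapped them to TAIR10 with STAR 2.7.11a and estimated counts with Salmon 1.10.1 on AtRTD3 transcripts and TAIR10 TEs, by strand. The deposited sense tables hold expected counts, not normalized and not always whole. The authors also deposited RPM, read here as scores on a per-million scale, of which only the antisense values of the first set and, for 1 alternative, its sense values were used. Counts of a locus were summed and rounded. Rows name TEs only by identifier, and coordinates and sequences were not used here. The study left out misregulated TEs that overlapped a protein-coding gene. No such step was taken here, and the part of reads from overlapping genes in the TE counts was not tested. Features with at least 10 counts in 3 or more libraries, 17943 in the first set, 17510 in the other, were fitted with edgeR 4.0.16 (quasi-likelihood, TMM) in R 4.3.3, all genotypes of a set together, without a replicate term, with Benjamini-Hochberg adjustment over all features. Calls needed an adjusted p no larger than 0.1 and a log2 fold change of 1 or more in size. Mean log2 levels used a prior count of 2. Floors and intervals cover counting error only, and a count of 0 was set at 3 counts, the 95% limit. The labels do not say that libraries of 1 genotype in the first set came from separate sowings, so p-values measure the spread between these libraries.

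The TEs and the gene and marker lists were chosen with earlier results of these data known. TEs were named by rule: the 10 with the highest mean CPM in ddm1, every called TE, those next to the limits, those with 0 counts wherever DDM1 was intact, those with the most counts in cdca7_ab, and those with the lowest and the highest spread over ddm1 genotypes. Exceptions are stated. Library totals of the second set were 1194658 to 5206149. In it, deviations of same-numbered plants of cdca7_ab and WT had correlations of 0.136 to 0.607 over 4 pairs. Plants with different numbers had correlations of -0.403 to 0.308, which overlap these, and a pairing was not tested. The fit with the number as a block called 5 TEs in place of 4. DESeq2 1.42.0, RLE normalization, no count filter, an adjusted p of 0.05, fits of only the compared libraries, a replicate block, other limits in the choice of TEs, other prior counts and leaving out each library were tried as alternatives. The choice on unrounded counts was added after seeing the data. The fit was also tested on simulated counts.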

Additional observations from a re-analysis of the deposited data

Results flagged for a closer look

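In cdca7_ab, AT1TE52860 had 35 counts in a single plant, against 1, 5 and 1 in the other 3, which stands apart by Dixon's criterion for 4 values. For normally distributed values, chance alone gives such a plant in about 1 of 20 groups, and 8 groups were tested in this way.

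Some lines moved the same TE in opposite directions relative to all ddm1_2_G5 libraries, and these differences were not tested. For AT2TE20205, ddm1_cdca7ab_1 was above and ddm1_cdca7b_2 below, a difference of 5.24 between their log2 fold changes. For AT4TE50435, ddm1_cdca7b_1 exceeded ddm1_cdca7b_2 by 7.58 and ddm1_cdca7ab_2 by 3.51, and ddm1_cdca7ab_1 exceeded ddm1_cdca7b_2 by 7.38 and ddm1_cdca7ab_2 by 3.31, all as differences of log2 fold changes.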

How the results depend on the processing

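Numbers of called TEs, out of 472, depended most on the count filter. Without it, 44 were called for ddm1_2_G5 against F2_ddm1 (42 higher), 36 for ddm1_2_G2 against F2_ddm1, 24 for ddm1_2_G5 against ddm1_2_G2, 11 for F2_ddm1_cdca7a_2, 16 for ddm1_cdca7a_1, 7 for ddm1_cdca7b_1, 16 for ddm1_cdca7b_2, 7 for ddm1_cdca7ab_1, 13 for ddm1_cdca7ab_2 and 8 for cdca7_ab against WT. DESeq2 called 10 (all higher) for ddm1_2_G5 against F2_ddm1, 7 for ddm1_2_G2 against F2_ddm1, 6 for ddm1_2_G5 against ddm1_2_G2, 1 for ddm1_cdca7a_1, 3 for ddm1_cdca7b_2, 4 for ddm1_cdca7ab_1 and 0 for cdca7_ab against WT. For the fits without the filter no share of all features is given, so those numbers describe the setting and not these TEs. The same holds for DESeq2 in ddm1_2_G5 against F2_ddm1, ddm1_cdca7b_2 and ddm1_cdca7ab_1. RLE normalization gave 1 for ddm1_2_G2 against F2_ddm1. With only the compared libraries, ddm1_cdca7ab_2 gave 0 and cdca7_ab 1, and ddm1_2_G5 against F2_ddm1 gave 3 of 294 TEs tested (2 higher), none of them AT2TE21505, AT1TE42210 or AT4TE18505. The cause was not tested.

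Leaving out each library in turn gave 0 to 3 calls for ddm1_2_G5 against F2_ddm1, 0 to 2 for ddm1_2_G2 against F2_ddm1 (2 without ddm1_2_G2 replicate 3), 1 to 2 for ddm1_cdca7ab_1, 0 to 2 for ddm1_cdca7ab_2 and 2 to 3 for cdca7_ab (2 without cdca7_ab replicate 5, WT replicate 3 or WT replicate 5). No fold change of a called TE changed direction in any of these settings.

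In the first set same-numbered libraries had correlations of their deviations from -0.224 to 0.386 over 19 pairs, with no common sign. In groups of 2 libraries the deviations mirror each other, so these correlations cannot decide whether replicate numbers pair libraries. With the replicate block, 1 TE was called in ddm1_cdca7ab_2 and 2 in ddm1_2_G5 against F2_ddm1, where AT4TE18505 lost its call. The block changed no other call among ddm1 plants.

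The number of TEs chosen was 292 with 0 counts required in Col_0, 106 with 0 counts required in each double-mutant library and 330 to 478 under the other limits, 466 with unrounded counts (463 shared). The difference in mean log2 level, ddm1_2_G5 minus F2_ddm1, was 0.451 to 0.715 with other prior counts or the deposited RPM, against 0.569.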
